A study of Mus musculus with 22 samples.

Results

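CD11b+ cells of HIE pups were compared between P7 and P14, 1 day and 8 days after the hypoxia that completes the injury. The members are the 8 HIE animals of 20 animals in the series, 4 at each day, chosen by their treatment and day labels. The HIE exposure joined 50 µg/kg of LPS (bacterial endotoxin, an inflammatory stimulus) given to the dam on E18 with a hypoxic episode of 8 min in the pups on P6. Both days carry both exposures, so neither day is an untreated state, and the mice are of the outbred CF-1 strain. CD11b is an integrin chain on microglia, brain macrophages and other myeloid cells, and the cells were pulled from whole brains on magnetic beads, which enriches them but leaves other brain cells in the sample. The P7 animals are the pups N5-3, N5-4, N8-3 and N8-4, all with the sex label M. The P14 animals are P4H1-1M, P4H1-6F, P6H12-14F and P6H12-11M, with 2 of each sex label, and 2 of them had 2 libraries, which were summed, so that 10 libraries of the 22 in the series entered. Values of single animals are given in this order throughout. Animals that share the first part of the name may share a litter, which the labels do not state, and no such prefix occurs on both days. The 4 P7 and the 4 P14 animals also come from different deposited tables, so age, time since the injury, litter and table cannot be told apart within the HIE group. The 8 control animals, 4 at P14 and 4 with day labels from P8 to P11, came from the same pair of tables and are used beside them. The methods put these early controls at P7, against their labels.

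Microglia enter the brain before birth and divide there through the first postnatal days. A transient early state, which clusters in the developing white matter and carries Spp1, Igf1 and Lpl, gives way to the mature surveillant state marked by P2ry12 and Tmem119. Microglia also answer bacterial products and tissue damage with cytokines driven by NF-κB, and viruses or nucleic acids with a type I interferon program. Each of these programs was followed here as a list of genes.

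The P7 animals had 73617532 to 79571088 counts and the P14 animals 31810227 to 76166821, and 3 counts, taken as the least that can be told from 0, corresponded to 0.0376 to 0.0891 CPM (counts scaled to a common library total). Levels below are CPM scaled by TMM, and a log2 fold change is P14 minus P7, so that a negative value means a lower level at P14. Microglial markers were present at a high level on both days. P2ry12 alone reached 1910 to 2560 CPM at P7 and 3210 to 5250 at P14, and the summed level of 16 microglial markers was 17860 to 20460 CPM at P7 and 20820 to 31270 at P14. Markers of other brain cells were in the samples too, and the level of several of these lists differed by day. All 16 oligodendrocyte markers tested were higher at P14, with a summed level of 536.1 to 693.7 CPM at P7 and 2283 to 4271 at P14. Of 12 endothelial markers 9 were higher and none lower (847.0 to 1076 against 1139 to 1772 CPM), and of 7 erythroid markers 4 were higher and 2 lower (20.17 to 43.01 against 129.3 to 398.7 CPM). Border-associated macrophages sit in the meninges and around vessels. Of 16 of their markers none was higher and 8 were lower (4724 to 7960 against 3069 to 4639 CPM). The N8 pups had the highest sums, 7960 and 6476 CPM, and without them 5 of 17 markers were lower and 2 higher. Of 18 markers of neutrophils and monocytes 3 were higher and none lower. The share higher was under the 22.8% of all genes tested but close to the 17.1% of protein-coding genes. The list summed to 121.7 to 309.1 CPM at P7 and 160.6 to 553.2 at P14. Of 19 T, NK and B cell markers 3 reached 1 CPM on either day. The T cell markers Cd3e, Cd3d and Cd3g had mean levels of 0.0491, 0.266 and 0.0166 CPM at P7 and 0.0647, 0.286 and 0.0614 at P14. The small RNA genes (snoRNA, snRNA and the like) took 2.52 to 2.92% of counts at P7 and 9.03 to 11.5% at P14. The part of these other cells and RNA classes in the results below was not tested. The plot of markers shows these shifts animal by animal. In these bulk samples fewer cells of a type and less RNA per cell cannot be told apart.

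**Figure D1:**
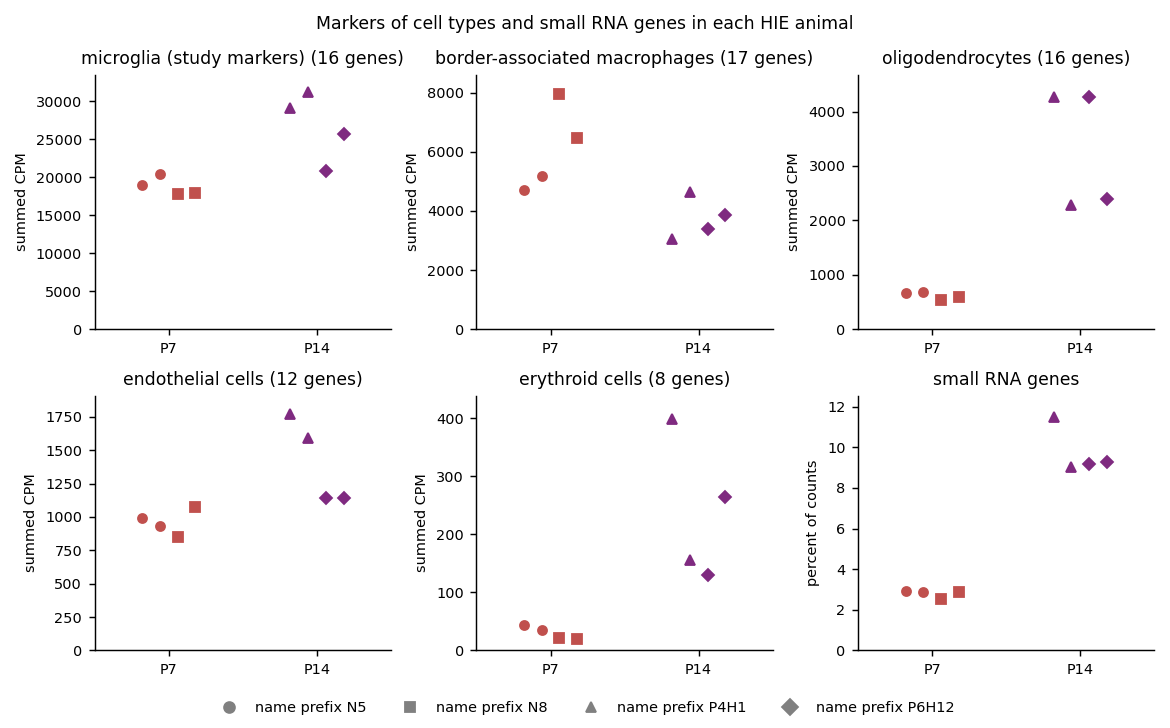
Summed CPM of 5 marker lists and the percent of counts in small RNA genes (vertical axes, from 0) in each of the 4 P7 and 4 P14 HIE animals, with a symbol for each name prefix. Oligodendrocyte markers (2283 to 4271 CPM at P14) and small RNA genes (9.03 to 11.5%) lie above every P7 animal. Border-associated macrophage markers lie below, narrowly so for P4H1-6F (4639 CPM) against N5-3 (4724 CPM).

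The days differed across much of the transcriptome. Of 22579 genes tested with edgeR's quasi-likelihood test, 5142 (22.8%) were higher at P14 and 5237 (23.2%) were lower at an adjusted p under 0.05. With a log2 fold change over 1 in size as well, 2973 genes (13.2%) were higher and 1754 (7.77%) lower. Animals that share a name prefix were taken as independent in these counts. With the prefix as a random block 8509 genes were called at the adjusted threshold in place of 10379, and with counts summed per prefix 7102. Among 15846 protein-coding genes 2704 (17.1%) were higher and 4460 (28.1%) lower, but a fit on protein-coding genes alone gave 3548 higher and 3757 lower. Their median log2 fold change was -0.081 in the first fit and 0.003 in the second, so that small shifts of a list around 0 depend on this scaling. Of 45 snoRNA genes 44 were higher at P14, and of 27 snRNA genes 26 were. The shares above are the background against which each of the 21 lists below, and each list of cell type markers, is read. The plot of list calls sets the 21 lists side by side. Fewer genes passed without the N5 pups (3233 higher, 3703 lower) or without the N8 pups (2999 and 3457). List counts from fits without these pups are read beside those numbers. No test of a list as a whole was made.

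**Figure D2:**
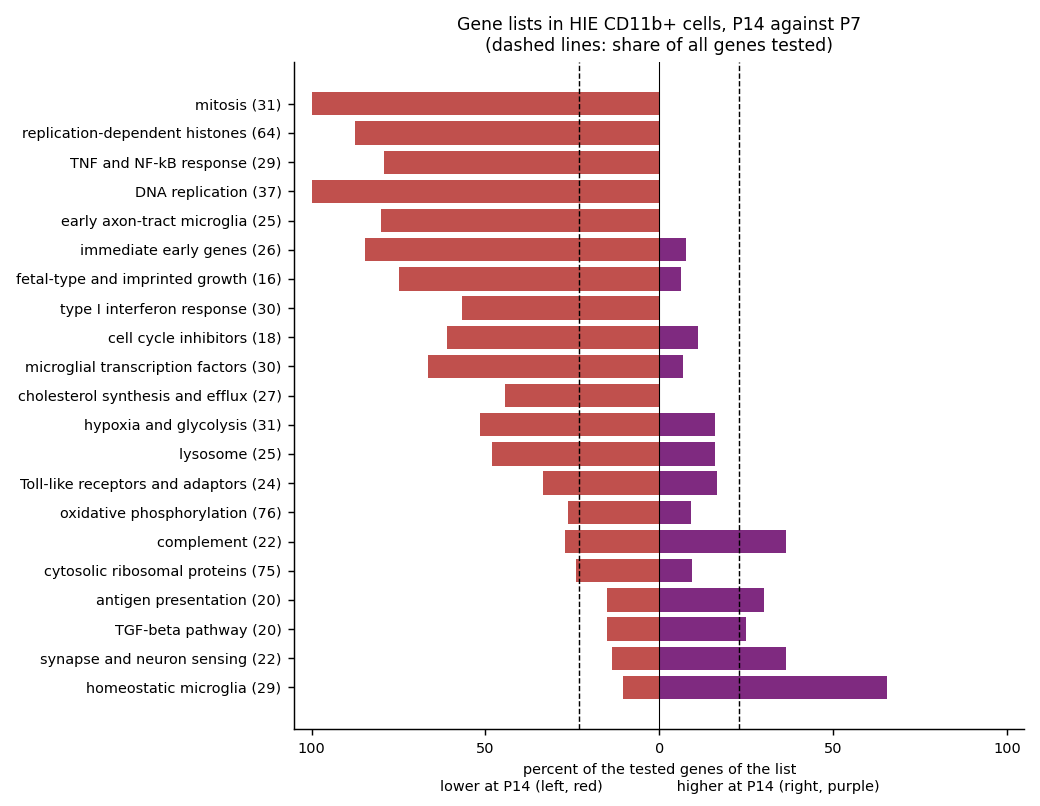
Percent of the tested genes of each list (number in brackets) that were lower (left) or higher (right) at P14, ordered by median log2 fold change, with dashed lines at the shares of all genes tested (23.2% and 22.8%). Mitosis and DNA replication reach 100% on the left, and homeostatic microglia extends furthest to the right.

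The cell division program was the most uniform difference. All 31 genes of mitosis were lower at P14, each by more than 1 on the log2 scale, with a median log2 fold change of -2.34. Ki-67 itself (Mki67, chr7:135291513-135318299 in GRCm39), a protein of dividing cells, stood at 478, 488, 429 and 493 CPM at P7 and at 89.9, 95.1, 106 and 86.9 CPM at P14. No P14 animal came near the P7 range, and the log2 fold change was -2.32 (SE 0.0948, adjusted p = 1.99e-07). Ube2c, which feeds the ubiquitin ligase that ends mitosis, had 38.6, 37.9, 31.5 and 38.8 CPM at P7 and 4.71, 4.82, 3.80 and 2.89 CPM at P14. This was the largest difference of the list, a log2 fold change of -3.18 (SE 0.167). Plk1, a kinase of mitotic entry, fell from 40.6 ± 1.23 to 4.87 ± 1.11 CPM (SD, n = 4 each), Ccnb1, the cyclin that activates Cdk1, from 58.0 ± 3.81 to 7.91 ± 1.3, and the topoisomerase Top2a from 290 ± 24.2 to 58.7 ± 8.00.

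DNA synthesis genes moved the same way. All 37 genes of DNA replication were lower at P14, 33 of them by more than 1 on the log2 scale, with a median of -1.68. E2f8, a repressor of the E2F family that is itself made in S phase, fell from 39.3 ± 3.61 to 3.83 ± 0.665 CPM, with the groups far apart. Rrm2, which makes deoxynucleotides, fell from 50.3 ± 3.26 to 6.79 ± 1.20 CPM, and Uhrf1, which maintains DNA methylation at the fork, from 106 ± 5.72 to 15.4 ± 2.32. The helicase subunit Mcm5 had 89.3, 92.3, 79.2 and 92.4 CPM at P7 and 27.9, 30.9, 19.4 and 18.3 CPM at P14. Both P4H1 animals were above both P6H12 animals, and the log2 fold change was -1.87 (SE 0.165, adjusted p = 1.78e-05).

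Histone genes that are read in S phase were lower as well, 56 of 64 tested and none higher, with a median of -1.77. H2ac12 had the largest difference of these, 49.9 ± 8.09 CPM at P7 and 1.11 ± 0.304 at P14, followed by H3c15 (164 ± 17.5 and 10.5 ± 2.55) and H3c2 (203 ± 32.2 and 17.7 ± 6.88). These genes have near-identical copies, between which the counting had to divide reads, so the value of a single copy is uncertain. Of 18 inhibitors of the cycle, 11 were also lower, with p21 (Cdkn1a) at 91.9, 88.6, 78.3 and 83.7 CPM at P7 and 14.3, 17.4, 16.5 and 18.7 at P14. The 2 that were higher were Ccng2, a cyclin found in resting cells (109 ± 15.3 and 169 ± 6.55 CPM), and Cdkn2b (1.77 ± 0.344 and 3.34 ± 1.03). Cdkn2a, which arrests ageing cells, was low on both days, at 0.822 ± 0.215 CPM and 0.168 ± 0.114.

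The promoters of the members that fell together are shown because cell cycle genes are known for short shared elements, the CCAAT box and the cell cycle homology element TTTGAA of mitotic genes, and the E2F site TTTGGCGC or TTTCCCGC of S phase genes. The windows run from 250 bases before to 50 bases after the start in RefSeq (table build GRCm38.p6), and each was located in GRCm39 by its only exact match. Capitals mark CCAAT and TTTGAA on either strand in Ube2c, Plk1 and Ccnb1, and CCAAT and TTTGGCGC on either strand in Mcm5.
Ube2c (chr2:164611599-164611898, plus strand): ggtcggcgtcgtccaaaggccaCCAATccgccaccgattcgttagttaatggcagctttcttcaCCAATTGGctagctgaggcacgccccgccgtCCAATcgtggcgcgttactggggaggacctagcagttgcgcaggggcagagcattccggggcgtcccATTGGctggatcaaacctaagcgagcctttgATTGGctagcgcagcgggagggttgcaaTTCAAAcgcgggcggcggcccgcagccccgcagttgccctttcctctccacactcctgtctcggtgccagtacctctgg
Plk1 (chr7:121758408-121758707, plus strand): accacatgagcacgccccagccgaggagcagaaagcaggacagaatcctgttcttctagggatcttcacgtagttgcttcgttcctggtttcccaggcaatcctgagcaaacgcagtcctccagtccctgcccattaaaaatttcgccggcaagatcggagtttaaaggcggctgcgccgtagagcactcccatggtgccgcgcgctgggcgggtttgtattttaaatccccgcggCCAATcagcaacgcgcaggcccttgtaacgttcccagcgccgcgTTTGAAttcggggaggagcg
Ccnb1 (chr13:100922945-100923244, minus strand): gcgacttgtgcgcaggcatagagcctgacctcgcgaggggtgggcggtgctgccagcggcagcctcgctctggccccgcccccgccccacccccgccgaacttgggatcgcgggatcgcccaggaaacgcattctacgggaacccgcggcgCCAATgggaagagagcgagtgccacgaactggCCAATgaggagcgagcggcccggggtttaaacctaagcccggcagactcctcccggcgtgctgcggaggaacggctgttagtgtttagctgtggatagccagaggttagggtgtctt
Mcm5 (chr8:75835887-75836186, plus strand): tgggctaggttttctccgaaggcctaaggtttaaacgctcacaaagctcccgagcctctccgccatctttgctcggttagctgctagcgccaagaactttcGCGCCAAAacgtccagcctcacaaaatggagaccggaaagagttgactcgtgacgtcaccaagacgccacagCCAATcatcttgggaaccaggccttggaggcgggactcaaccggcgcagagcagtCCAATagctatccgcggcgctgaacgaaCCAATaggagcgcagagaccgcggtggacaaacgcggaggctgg

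Letters were searched on both strands in all windows of a gene. Of the 27 mitosis genes with a window, 21 (77.8%) held CCAAT, against 42.4% of 13350 genes tested with a window, and 20 (74.1%) held TTTGAA, against 15.5%. Both stood together in 18 (66.7%), against 7.58%. Among 30 DNA replication genes the shares were 60% for CCAAT and 16.7% for TTTGAA, but 10 (33.3%) held TTTCCCGC or TTTGGCGC, against 2.97% of all genes and 0 of the 27 mitosis genes. Among 20 homeostatic microglia genes CCAAT was in 50%, TTTGAA in 20% and an E2F site in 5%. Ube2c held 6 CCAAT matches on the 2 strands, 2 of them in one palindrome, and Ccnb1 held no TTTGAA in this window. These are letter matches and not tests of binding.

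Genes of the early white matter state were lower at P14. Of 25 in the list of early axon-tract microglia, 20 were lower and none higher, with a median log2 fold change of -1.17. Osteopontin (Spp1, chr5:104582165-104589235), a secreted matrix protein, had 651, 350, 533 and 1040 CPM at P7 and 56.2, 60.3, 48.2 and 46.9 CPM at P14. The P7 animals were spread over a wide range and the P14 animals were not, and the log2 fold change was -3.60 (SE 0.296, adjusted p = 1.1e-05). Gpnmb, a lysosomal glycoprotein, had 210, 122, 227 and 371 CPM against 26.3, 46.6, 24.9 and 25.0. The lipase Lpl had 146, 170, 229 and 233 CPM against 27.3, 34.9, 23.2 and 27.8, and both N8 pups were above both N5 pups. The growth factor Igf1 (chr10:87693642-87772904) showed the same order, with 172, 147, 211 and 225 CPM at P7 and 34.7, 38.3, 38.4 and 40.4 at P14, a log2 fold change of -2.31 (SE 0.133). Itgax, the integrin chain CD11c, fell from 163 ± 35.0 to 26.7 ± 5.44 CPM.

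Not every member of this state was lower. Apoe, the lipid carrier, had 3210, 2990, 3650 and 4140 CPM at P7 and 3490, 4000, 2500 and 3580 CPM at P14, with overlapping groups and a difference of -0.04 on the log2 scale (SE 0.175, adjusted p = 0.853). Clec7a, a lectin of reactive microglia, fell from 69.1 ± 24.9 to 30.3 ± 8.92 CPM, but 40.4 CPM in N8-3 and 40.1 in P4H1-1M nearly met. Its call was lost in 3 of 25 other fits, without the P6H12 animals, among animals with the sex label M alone and with the sex label as a covariate. Without the N8 pups 13 of the 25 genes were called lower in place of 20, and with counts summed per prefix 15 were. Of the lysosome list, 12 of 25 genes were lower and 4 higher. Atp6v0d2, a subunit of the proton pump, fell from 14.4 ± 5.72 to 1.13 ± 0.410 CPM and the glucuronidase Gusb from 433 ± 45.3 to 221 ± 30.5, whereas cathepsin S (Ctss) rose from 900 ± 45.2 to 1670 ± 262.

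Homeostatic genes were higher at P14 in most but not all cases. Of 29, 19 were higher and 3 lower, with a median log2 fold change of 0.48. Selplg, the ligand of P-selectin, had 287, 352, 233 and 279 CPM at P7 and 1290, 1440, 971 and 1240 CPM at P14. Tmem119 (chr5:113931781-113938577), a membrane protein of mature microglia, had 550, 554, 370 and 433 CPM against 1650, 1920, 1180 and 1610. The ADP receptor P2ry12 (chr3:59123682-59170429) had 2280, 2560, 1930 and 1910 CPM against 5250, 4420, 3210 and 3920. All 3 kept the days apart, with log2 fold changes of 2.10 (SE 0.159), 1.74 (SE 0.181) and 0.95 (SE 0.177). The P6H12 animals lay below the P4H1 animals for P2ry12. The number of list genes called higher was 12 without P4H1, 12 without N5, 8 without N8 and 20 without P6H12. It was 10 with counts summed per prefix. Over all genes, calls higher fell from 5142 to 3233 without N5 and to 2999 without N8, and rose to 6493 without P4H1.

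**Figure D3:**
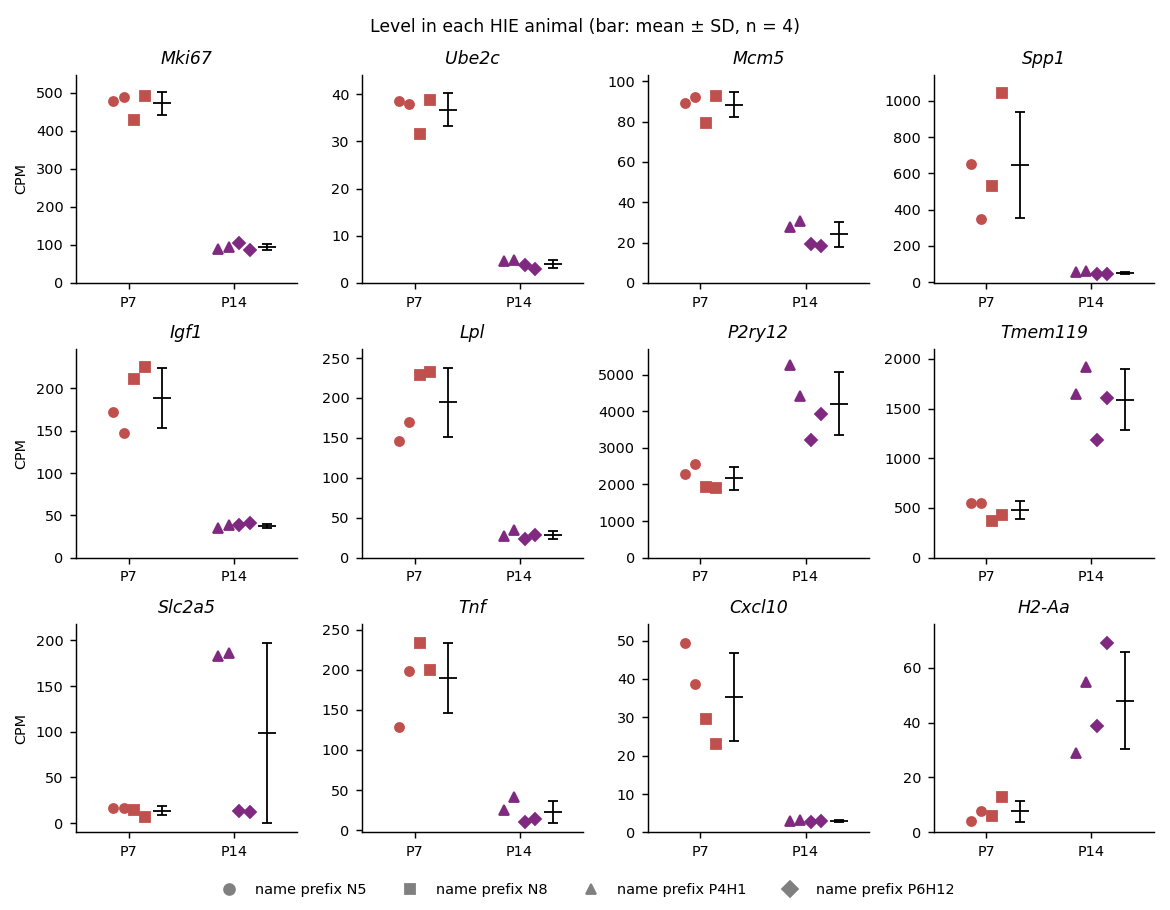
CPM (vertical axes) of 12 genes in each of the 4 P7 and 4 P14 HIE animals, with a symbol for each name prefix and, beside them, the mean with 1 SD. The days are apart for 11 of the genes, and for Slc2a5 only the P4H1 animals (183 and 186 CPM) leave the P7 range.

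The gene with the largest log2 fold change among homeostatic genes rested on a single prefix. Slc2a5 (chr4:150196268-150228931), the fructose transporter of microglia, had 16.4, 17.1, 14.5 and 6.91 CPM at P7 and 183, 186, 13.6 and 12.6 CPM at P14. Both P4H1 animals were high and both P6H12 animals were within the P7 range. The log2 fold change was 2.85 (SE 0.839, adjusted p = 0.0182), and without the P4H1 animals it was -0.09. The 3 genes that were lower were Sall1, the transcription factor that sets microglial identity (885 ± 99.8 and 658 ± 93.1 CPM), its relative Sall3 (108 ± 9.36 and 87.4 ± 10.9) and the leukotriene synthase Ltc4s (79.7 ± 5.12 and 64.0 ± 7.21). The days overlapped for Sall3 and Ltc4s but not for Sall1, and all 3 calls were lost in the fit on protein-coding genes.

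Transcription factors known in microglia were lower in 20 of 30 cases and higher in 2. Mef2a, an activity-regulated factor, was among the higher ones, with 478, 519, 381 and 395 CPM at P7 and 610, 730, 665 and 690 CPM at P14. Among those that fell were Cebpb, which drives inflammatory genes (145 ± 21.0 and 54.5 ± 15.8 CPM), and the activity-induced factors Egr1 (3300 ± 113 and 712 ± 212) and Nr4a1 (1040 ± 63.2 and 270 ± 102). TGF-β signalling keeps microglia in the mature state. Of 20 genes of the pathway 5 were higher, 3 were lower and 12 had no call. The share higher was close to that of all genes (22.8%) and the share lower was under it (23.2%). Among protein-coding genes these shares were 17.1% and 28.1%. The ligand Tgfb1 had 340, 385, 350 and 353 CPM at P7 and 123, 156, 126 and 157 CPM at P14. The receptor Tgfbr1 had 828, 891, 694 and 752 CPM against 2030, 2190, 1930 and 1930. Ligand and receptor thus moved in opposite directions, with log2 fold changes of -1.34 (SE 0.105) and 1.35 (SE 0.117). Of the proteins that hold the latent ligand, Nrros fell from 272 ± 12.0 to 181 ± 35.0 CPM and Ltbp1 rose from 6.77 ± 0.505 to 14.7 ± 2.98.

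Inflammatory genes driven by NF-κB were lower at P14. Of 29, 23 were lower and none higher, with a median log2 fold change of -1.68. The cytokine Tnf (chr17:35418357-35420983) had 129, 198, 233 and 199 CPM at P7 and 25.5, 40.9, 9.98 and 13.4 CPM at P14. Its lowest P7 animal was above its highest P14 animal, with a difference of -3.07 on the log2 scale (SE 0.402, adjusted p = 0.000198). The chemokine Ccl7 had 106, 168, 328 and 200 CPM against 22.0, 37.1, 15.2 and 26.0. Tnfaip2, a target of TNF, had 34.2, 36.8, 39.1 and 38.8 CPM against 5.08, 5.62, 4.81 and 4.04, with little spread on either day. The number of lower genes was 23 or 24 in each fit without 1 of the 4 prefixes.

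Immediate early genes, which respond to stimulation within minutes and also to the handling of cells, were lower in 22 of 26 cases, with a median of -1.12. Dusp2, a phosphatase of MAP kinases, fell from 82.0 ± 10.4 to 9.84 ± 3.08 CPM, Egr2 from 276 ± 104 to 44.2 ± 15.2 and Gadd45b from 62.0 ± 6.5 to 12.0 ± 2.72. The 2 that rose were the heat shock genes Hspa1a (15.2 ± 4.89 and 81.1 ± 17.1 CPM) and Hspa1b (26.0 ± 8.12 and 95.6 ± 44.9), which are near-identical copies.

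Receptors for microbial products were lower in 8 of 24 cases and higher in 4, not far from the 28.1% and 17.1% of protein-coding genes. Tlr2, which senses bacterial lipoproteins, fell from 180 ± 9.12 to 73.0 ± 11.0 CPM, its partner Tlr1 from 75.1 ± 15.0 to 33.7 ± 11.0 and the adaptor Ticam1 from 47.1 ± 4.18 to 20.8 ± 2.79. Tlr3, which senses double-stranded RNA, rose from 33.1 ± 3.98 to 52.2 ± 3.79 CPM and Tlr13, which senses bacterial ribosomal RNA, from 129 ± 18.3 to 203 ± 18.9. In the complement list 8 of 22 genes were higher and 6 lower. The receptors for the fragments C3a and C5a fell, C3ar1 from 490 ± 49.2 to 124 ± 17.9 CPM and C5ar1 from 113 ± 21.1 to 40.1 ± 10.3. C1qa, which starts the classical pathway, rose from 870 ± 75.1 to 1470 ± 239 CPM, and Itgam, the CD11b gene used to enrich the cells, from 876 ± 115 to 1570 ± 209. Without the N5 or the N8 pups 2 complement genes were called higher in place of 8.

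The type I interferon response was lower at P14 in 17 of 30 genes and higher in none, with a median log2 fold change of -0.69. Cxcl10 (chr5:92494497-92496748), a chemokine for T cells, had 49.4, 38.8, 29.6 and 23 CPM at P7 and 3.06, 3.11, 2.58 and 3.07 CPM at P14. The P7 animals were spread out while the P14 animals were nearly equal, and the log2 fold change was -3.57 (SE 0.227, adjusted p = 2.21e-06). Ifi27l2a, an interferon-induced gene, had 14.2, 8.44, 8.58 and 6.54 CPM against 2.74, 3.20, 3.15 and 3.15. Zbp1, a sensor of Z-form nucleic acids, had 2.67, 2.10, 1.58 and 2.17 CPM against 0.408, 0.721, 0.594 and 0.951. The 30 genes summed to 422.6 to 529.6 CPM at P7 and to 326.7 to 354.8 CPM at P14, and without the N5 pups 11 were called lower in place of 17.

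Of 20 genes of antigen presentation 6 were higher at P14, 3 were lower and 11 had no call. The higher ones included genes of MHC class II, which present antigen to helper T cells. H2-Aa (chr17:34493404-34506798) had 4.27, 7.74, 5.78 and 12.9 CPM at P7 and 29.0, 54.8, 38.8 and 69.0 CPM at P14, with a difference of 2.64 on the log2 scale (SE 0.360, adjusted p = 0.000254). H2-Eb1 rose from 6.24 ± 4.36 to 32.5 ± 9.22 CPM and H2-Ab1 from 7.39 ± 3.71 to 32.2 ± 14.1, and N8-4 was the highest P7 pup for all 3. The class I gene H2-Q7 fell from 8.20 ± 0.921 to 1.78 ± 0.597 CPM. H2-K1, also of class I, had 98.4, 41.7, 84 and 37.2 CPM against 23.9, 26.9, 26.6 and 47.4, the groups overlapped, and its call was lost in 10 of 25 other fits. Class I genes have near-identical relatives, so the values of single genes are uncertain. The third lower gene, Nlrc5, an activator of class I genes, had 5.76 ± 1.02 and 3.54 ± 1.3 CPM, and its call was lost in 13 of 25 other fits.

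Of 31 genes of hypoxia and glycolysis 16 were lower and 5 higher, with a median of -0.30. The median between the days in controls was -0.54. Egln3, an oxygen sensor induced by hypoxia, had 7.11, 7.66, 9.66 and 9.94 CPM at P7 and 2.63, 2.15, 2.61 and 1.89 CPM at P14, and the hypoxia marker Car9 fell from 6.95 ± 0.738 to 2.59 ± 1.08 CPM. Ddit4, a stress inhibitor of mTOR, went the other way with 21.8, 16.7, 15.9 and 18.3 CPM against 37.9, 64.0, 79.7 and 62.9. The glucose transporter Slc2a1, which is also abundant in brain endothelium, rose from 164 ± 13.8 to 271 ± 53.6 CPM. Of 27 genes of cholesterol synthesis and efflux 12 were lower and none higher, among them Srebf2, the regulator of the pathway, which fell from 175 ± 10.3 to 87.4 ± 6.51 CPM. Oxidative phosphorylation had 20 lower and 7 higher of 76, and cytosolic ribosomal proteins 18 lower and 7 higher of 75. In both lists the share that was lower was close to that of all genes (23.2%). The share that was higher was under that of all genes (22.8%) and of protein-coding genes (17.1%). Both lists depended on the prefix. Without the P4H1 animals 52 and 57 of their genes were called lower and 4 in each list higher, and without the P6H12 animals 12 and 14 were called lower and 21 and 22 higher.

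Genes of the fetal growth program were lower in 12 of 16 cases. The imprinted RNA H19 had 25.8, 16.3, 40.4 and 37.5 CPM at P7 and 7.79, 4.75, 5.88 and 7.23 CPM at P14, and Igf2bp3, a fetal RNA-binding protein, fell from 61.5 ± 3.40 to 19.8 ± 2.78 CPM. Hmga2 was the exception, with 0.488 ± 0.0673 CPM at P7 and 2.19 ± 0.488 at P14. Of 22 genes that sense synapses and neurons 8 were higher and 3 lower. The glutamate receptor genes Grm4 (3.10 ± 1.14 and 15.9 ± 2.85 CPM) and Gria1 (19.1 ± 3.88 and 51.5 ± 35.6, with the days overlapping) were among the higher ones, and the purine receptors P2ry6 (245 ± 12.9 and 165 ± 35.1) and P2rx4 (55.2 ± 6.26 and 38.1 ± 6.13) among the lower. Without the N8 pups 2 were called higher. Of 15 neuron markers 5 were higher, 1 was lower and 9 had no call, with overlapping sums of 269.3 to 350.8 CPM at P7 and 292.3 to 391.1 CPM at P14. Snap25 rose from 6.27 ± 1.45 to 20.6 ± 2.51 CPM, and the part of neuronal RNA in the glutamate receptor values was not tested.

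Over all protein-coding genes with at least 10 CPM on the higher day, the largest log2 fold changes were led by genes of blood, myelin and neurons on one side and of division and the early state on the other. Hba-a1, a globin chain, had 3.58, 2.39, 1.74 and 0.853 CPM at P7 and 191, 71.7, 64.3 and 130 CPM at P14, and Hbb-bs rose from 3.08 ± 0.875 to 103 ± 56.5 CPM. The myelin gene Mog (2.12 ± 1.10 and 27.9 ± 13.3 CPM) was highest in P4H1-1M and P6H12-14F, which also had the highest sums of oligodendrocyte markers. Myelin basic protein (Mbp) had 127, 129, 80.3 and 81.6 CPM against 505, 206, 365 and 232. The cerebellar granule cell genes Gabra6 (0.314 ± 0.197 and 10.3 ± 1.26 CPM) and Cbln3 (0.885 ± 0.270 and 13.8 ± 1.70) also rose. The part of RNA from blood, oligodendrocytes and neurons in these values was not tested. Csmd3, a large membrane protein, had 13.5, 14.3, 12.1 and 12.4 CPM against 107, 149, 139 and 297, and the integrin chain Itgae rose from 2.20 ± 0.540 to 25.0 ± 13 CPM. P6H12-11M was the highest animal for both. Also among the 12 were Teddm2, Ermn, Prlr and Chgb, with log2 fold changes of 4.26, 3.96, 3.72 and 3.48.

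On the lower side stood, beside histones, Spp1, E2f8, Cxcl10 and Atp6v0d2, the cytokine Tnfsf18 (34.8 ± 14.1 and 2.38 ± 0.501 CPM), the heparan sulphate cutting enzyme Hpse (51.8, 32.8, 45.1 and 66.9 CPM against 3.99, 6.27, 4.25 and 4.55) and the mitotic gene Troap (16.7 ± 1.68 and 1.71 ± 0.362). Kpna2rt, a copy of the nuclear import gene Kpna2, had 53.8 ± 3.81 and 1.73 ± 0.793 CPM, which depends on how reads were divided with its parent gene. Gvin1 was listed at 0 in all 4 P14 animals and at 19.8, 15.5, 0.316 and 15.2 CPM at P7, so that 1 P7 pup was also near 0. It belongs to a family of near-identical interferon-inducible GTPases, and no fold is given for it.

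The control animals had a day difference too, and the test of the difference between the day differences is the one comparison in which the deposited table is on both sides. At an adjusted p under 0.05 edgeR called 1 of 24693 genes (0.00405%), and 3434 genes (13.9%) had an unadjusted p under 0.05. DESeq2 called 674 genes for the same contrast, 554 with a positive and 120 with a negative difference. Results of this contrast below are from edgeR. The early controls were not uniform, since the mean log2 level of microglial markers was 8.93 and 9.12 in the P6H55 pups but 6.38 and 5.78 in the P6H63 pups, against 9.27 to 9.47 in HIE at P7. These prefixes also differ in day label, P8 and P9 in the P6H63 pups and P10 and P11 in the P6H55 pups. Prefix and label day thus cannot be told apart, and by the labels the control interval is shorter than that of HIE. Each list was therefore also compared with either prefix alone, in which 2247 of 25848 genes (8.69%) and 10268 of 26211 (39.2%) had an unadjusted p under 0.05.

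**Figure D4:**
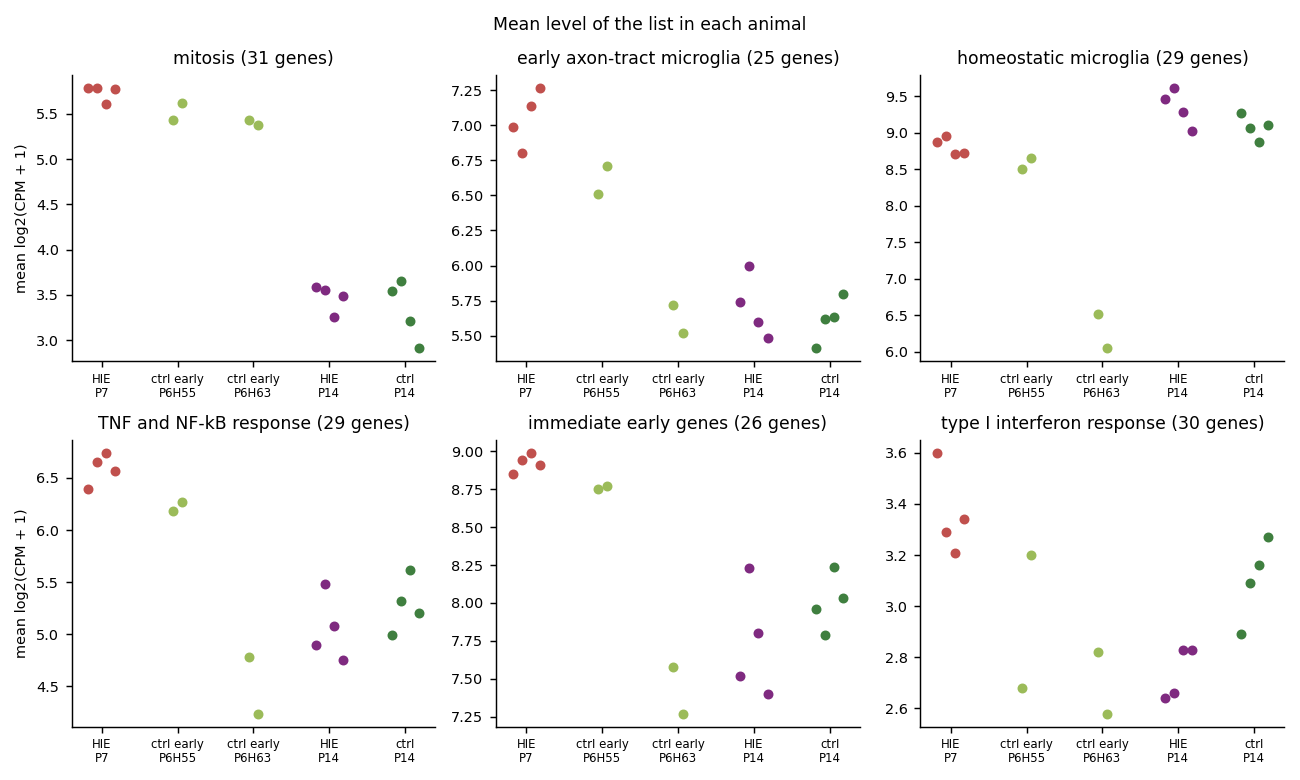
Mean log2(CPM + 1) over the genes of 6 lists (vertical axes, not starting at 0) in each of the 8 HIE and 8 control animals, with the early controls shown by name prefix. The P6H63 controls lie far below the P6H55 controls for homeostatic, TNF and immediate early genes, while for mitosis they lie close to them.

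For cell division the drop between the days was of like size in the controls, whose interval is shorter by the labels. The median over mitosis genes was -2.34 in HIE and -2.25 in controls, and the median difference between them was -0.11 with all early controls, -0.11 with P6H55 and -0.20 with P6H63. For DNA replication it was 0.10, 0.11 and 0.04. Mki67 fell from 460 CPM in P6H55 and 342 in P6H63 to 96.6 CPM in controls at P14. For the homeostatic list the answer turned on the prefix, with a median difference of -0.86 with all early controls, -0.10 with P6H55 and -2.56 with P6H63. With P6H55, 1 of 29 homeostatic genes had an unadjusted p under 0.05, and with P6H63 27 had. For hypoxia and glycolysis genes the median was -0.30 in HIE and -0.54 in controls. Their median difference was 0.0 with all early controls, -0.05 with P6H55 and 0.01 with P6H63.

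**Figure D5:**
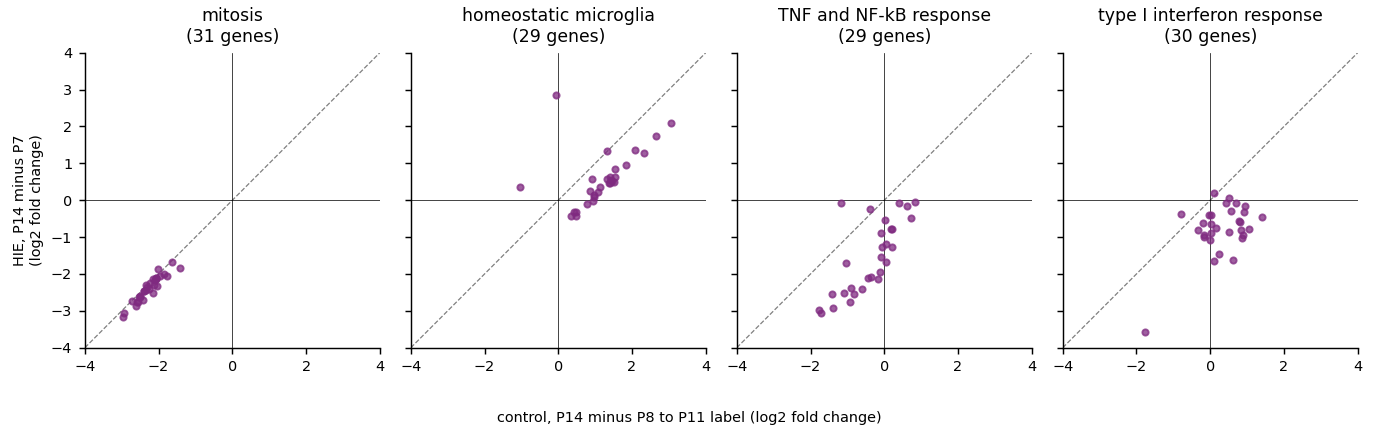
Log2 fold change between the days in HIE (vertical axis) against that in controls (horizontal axis) for the genes of 4 lists, 1 point a gene, with a dashed line where both are equal. Most genes of all 4 lists lie below the line. The mitosis genes lie close to it (median difference -0.11) and the homeostatic, TNF and interferon genes further off (-0.86, -1.26 and -1.02).

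The medians of both inflammatory lists were lower in HIE than in controls, and so were those of other lists. The median difference was -0.90 over immediate early genes, with an unadjusted p under 0.05 in 11 of 26, and -0.84 over early axon-tract genes, with 11 of 25. With P6H55 alone these were -0.31 and -0.39. For TNF and NF-κB genes the median was -1.68 in HIE and -0.18 in controls, and the median difference was -1.26 with all early controls, -0.57 with P6H55 and -2.67 with P6H63. The unadjusted p was under 0.05 in 15, 11 and 28 of the 29 genes. With P6H63 the 16 microglial markers had a median difference of -3.07, and all 16 had an unadjusted p under 0.05. The TNF value with P6H63 thus cannot be told apart from the low microglial marker level of those pups. Tnf itself stood at 164 CPM in P6H55, 28.6 in P6H63 and 29.1 in controls at P14, against 190 and 22.4 in HIE. For the type I interferon response the median was -0.69 in HIE and 0.33 in controls, and the median difference was alike with either prefix, -1.02 with all early controls, -1.08 with P6H55 and -1.14 with P6H63. In 20, 20 and 25 of the 30 genes the unadjusted p was under 0.05. The interferon value with P6H63 cannot be told apart from the low microglial marker level either. No gene of either list passed the adjusted threshold in edgeR with all early controls or with P6H55. Zbp1 had 1.3 CPM in P6H55, 0.885 in P6H63 and 1.17 in controls at P14, against 2.13 and 0.668 in HIE, with a difference of -1.77 (SE 0.426, adjusted p = 0.115).

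The single gene called by edgeR was Vps37b (chr5:124142013-124170429), a subunit of the ESCRT-I complex that sorts membrane proteins for degradation. It had 128, 135, 107 and 74.3 CPM in HIE at P7 and 43.8, 53.8, 37.5 and 46.8 at P14, so that no P14 animal reached the P7 range. In controls it had means of 76.9 CPM in P6H55 and 88.7 in P6H63 and 120 at P14. The log2 fold change was -1.29 (SE 0.180) in HIE and 0.53 in controls, and the difference was -1.83 (adjusted p = 0.0262). With P6H55 alone the difference was -1.95 with an adjusted p of 0.0655, and the call was lost without any 1 of P4H1-1M, P6H12-14F, P6H12-11M, N5-3, N5-4 or N8-3, with differences of -1.86 to -1.74 and adjusted p-values of 0.054 to 0.0846. The genes with the smallest p-values of the opposite sign included Fzd4 (34.8 ± 2.18 and 67.3 ± 4.99 CPM in HIE, difference 1.07), Bche (18.4 ± 2.21 and 28.6 ± 4.36, difference 1.75) and Bmx (3.26 ± 0.830 and 9.35 ± 1.37, difference 1.90), each with an adjusted p of 0.11. Markers of some other cells moved the same way. The median difference was 1.41 over 12 endothelial, 1.65 over 8 mural cell, 1.85 over 11 choroid plexus and ependyma and 1.79 over 8 meningeal fibroblast markers. With P6H55 alone it was 0.78, 0.90, 1.29 and 0.71. Neural lists did not share this. The median difference was -0.73 over oligodendrocyte, -0.27 over neuron and -0.06 over immature neuron markers, and -0.72, -0.79 and -1.04 with P6H55. Over astrocyte and oligodendrocyte progenitor markers it was 0.66 and 0.37, but -0.18 and -0.26 with P6H55. The part of these cells in the values of single genes and lists was not tested.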

How the data were processed

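Bulk RNA-seq of CD11b+ brain cells was deposited by the authors in the form of expected counts per gene. Per the study's methods, reads were mapped to GRCm39 with STAR and counted with RSEM, which divides reads between near-identical copies (histones, Hspa1a and Hspa1b, globins, class I MHC, ribosomal proteins, Kpna2rt, Gvin1), so those genes are uncertain. The expected counts were rounded, repeat libraries of 1 animal were summed (their mean chi-square per gene was 5.611 and 9.942, against 28.1 to 94.11 between animals), and 56017 of 56691 genes were matched to GENCODE M39 symbols. Totals per animal were 31810227 to 79571088 counts.

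Days were compared with edgeR 4.0.16 (R 4.3.3) by the quasi-likelihood test with TMM, filterByExpr and Benjamini-Hochberg adjustment over all genes tested. The difference of the day differences, HIE minus control, was a contrast over 16 animals. Mean levels carry the SD over animals. On simulated data 111 of 200 genes changed by a log2 fold of 1 were recovered among 22579 genes, with 3 false calls of 114. The simulated animals were independent of each other, so false calls among animals that share a prefix were not assessed. Alternatives were DESeq2 1.42.0, limma 3.58.1 with the name prefix as a random block (correlation 0.29), other scalings and filters, sex label, and leaving out animals or prefixes.

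The members, gene lists and tests were chosen with earlier results of these data known. Genes were named by rule: in each list the called genes at either end of the log2 fold changes, 3 per end, the 12 largest and 12 smallest over protein-coding genes with at least 10 CPM, the 8 smallest p-values in each direction for the difference of the day differences, and a set of fixed genes with defining cell type markers. Some genes that this rule names are not reported here. Fcrls had no match. Hypoxia-only animals were not used.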

Additional observations from a re-analysis of the deposited data

Results flagged for a closer look

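Among 241 groups of 4 animals tested for a gene named in the text or by its rule, 14 held an animal far from the other 3 by Dixon's criterion, and chance alone flags about 1 in 20 such groups. Of P14 animals, P4H1-6F was high for Gpnmb (46.6 CPM, others 24.9 to 26.3), P6H12-14F high for E2f8 (4.81, others 3.38 to 3.62) and low for Cxcl10 (2.58, others 3.06 to 3.11). P6H12-11M was low for Ccnb1 (5.95 CPM, others 8.47 to 8.62) and high for H2-K1 (47.4, others 23.9 to 26.9). P4H1-1M was low for Ifi27l2a (2.74 CPM, others 3.15 to 3.20) and Tnfsf18 (1.63, others 2.59 to 2.69) and high for Car9 (4.21, others 1.99 to 2.09).

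Of P7 animals, N8-3 was low for Ube2c (31.5 CPM, others 37.9 to 38.8), Ltbp1 (6.02, others 6.97 to 7.10) and Kpna2rt (48.2, others 55.3 to 56.1) and high for Egr2 (431, others 205 to 235). N8-4 was high for Igf2bp1 (3.79 CPM, others 1.58 to 1.89) and Rpl3 (432, others 191 to 214). The P7 value of N8-4 brings Rpl3 within the P14 range. Vps37b is listed because its day difference differed between HIE and control animals, by -1.83 on the log2 scale (edgeR, adjusted p = 0.0262).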

How the results depend on the processing

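No paired analysis was possible because the days hold different animals with different name prefixes, and the replicate numbers only follow the order of the labels, so there was no replicate block. For the day difference in HIE, leaving out 1 animal or 1 prefix gave 6456 to 13245 called genes, 2999 to 6493 higher and 3457 to 6752 lower. Among them, 6456 were called without N8 and 6936 without N5, against 10379 with all animals. For the difference of the day differences, leaving out an HIE animal gave 0 to 1 genes. DESeq2 gave 674, the P6H55 controls alone 0, the P6H63 controls alone 7771 and scaling by library size alone 0, with 2247 and 4176 genes at an unadjusted p under 0.05 in the fits that called none. Library size alone moved the median over all genes to 0.196. For Slc2a5, leave-outs gave log2 fold changes of -0.09 to 3.76, and the negative value was without P4H1. For Apoe, which was not called, leave-outs gave -0.22 to 0.11, and the sign turned with a 1 CPM filter (0.02), protein-coding genes only (0.04), sex label M only (0.02), the sex label as a covariate (0.01) and counts summed per prefix (0.00). Of 3330 values of single genes under alternatives, 3174 kept direction and side of the threshold, 116 lost the call, 30 gained it and 10 reversed. Of 1750 list counts, 199 moved by more than 1.5 times. The cause was not tested.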

Other observations

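Markers of other brain cells changed in opposite directions between the days. Of 10 markers of immature neurons 8 were lower at P14, with summed levels of 228.1 to 361.6 CPM at P7 and 115.8 to 217.5 at P14, among them Dcx, a microtubule protein of migrating neurons (56.5 ± 13.5 and 25.6 ± 8.88 CPM, SD, n = 4 each). Of 14 astrocyte markers 6 were higher and 2 lower, with Slc1a2, the main glutamate transporter, at 230 ± 50.5 and 479 ± 140 CPM, and Gfap, a filament protein of reactive astrocytes, at 288 ± 38.5 and 107 ± 53.7 CPM. Of 11 markers of choroid plexus and ependyma 6 were higher and none lower, and P4H1-1M had the highest sum of these, 4842 CPM. Lyve1, a marker of border macrophages, fell from 332 ± 43.5 to 163 ± 38.2 CPM, whereas Cd163, another, had 183 ± 72.0 and 232 ± 44.7 CPM with the days overlapping.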
